A study of Mus musculus with 5 samples.

Results

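The DNA methylation genes described here are the 9 genes Dnmt1, Dnmt3a and Dnmt3b, which encode the enzymes that write the mark, Tet1, Tet2 and Tet3, which encode the enzymes that start its removal, and Mbd1, Mbd2 and Mbd3, which encode proteins with a methyl-CpG-binding domain. They were chosen by name, and each had its own row among the 47729 genes of the count table. The mRNA libraries come from the right hemisphere of the brain of C57BL/6 mice (an inbred strain), all of them male and 5 months old. All 5 libraries carry the same labels and form 1 group, with no treated, mutant or older group, so genes are compared with each other within a library and libraries with each other. The samples are called animals 1 to 5 here, in accession order. The labels do not state that each came from a separate mouse, so each p-value reflects the spread of these 5 samples alone, part or all of which may be technical.

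Methylation of mammalian DNA sits mostly on the cytosine of CG dinucleotides. Dnmt1 copies the mark onto the new strand after replication, whereas Dnmt3a and Dnmt3b set it on unmethylated sites. The Tet enzymes oxidise methylcytosine to hydroxymethylcytosine, a base that is abundant in neurons. They can oxidise it further, and base excision repair of those later products can restore cytosine. Proteins of the Mbd family bind methylated CG sites and bring in repressor complexes. Mbd2 and Mbd3 are alternative subunits of NuRD, a complex that joins nucleosome remodelling with histone deacetylation, and mammalian Mbd3 binds methylated DNA only weakly.

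Because these genes act on CG sites, the CG content of their own promoters is shown, as a description that bears on no level. The 250 bases before the annotated RefSeq start are printed for 5 start windows free of exons of their own gene, which run from CG-poor to CG-rich (GRCm38.p6, 5′ to 3′ on the gene's strand, with each CG in capitals). CG reads the same on both strands, so 1 search covers both.
Dnmt1 first start, chr9:20959889-20960138, minus strand: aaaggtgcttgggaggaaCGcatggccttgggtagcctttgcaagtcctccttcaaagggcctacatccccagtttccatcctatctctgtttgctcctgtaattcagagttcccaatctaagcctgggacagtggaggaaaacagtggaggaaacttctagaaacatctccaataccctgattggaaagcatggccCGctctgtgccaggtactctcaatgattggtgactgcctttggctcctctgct
Dnmt3a first start, chr12:3806730-3806979, plus strand: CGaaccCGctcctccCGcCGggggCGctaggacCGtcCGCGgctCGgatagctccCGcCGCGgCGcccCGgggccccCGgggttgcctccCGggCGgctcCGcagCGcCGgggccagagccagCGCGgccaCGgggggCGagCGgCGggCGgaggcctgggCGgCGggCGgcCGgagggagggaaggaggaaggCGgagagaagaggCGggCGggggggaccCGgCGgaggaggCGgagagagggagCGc
Dnmt3b, chr2:153649199-153649448, plus strand: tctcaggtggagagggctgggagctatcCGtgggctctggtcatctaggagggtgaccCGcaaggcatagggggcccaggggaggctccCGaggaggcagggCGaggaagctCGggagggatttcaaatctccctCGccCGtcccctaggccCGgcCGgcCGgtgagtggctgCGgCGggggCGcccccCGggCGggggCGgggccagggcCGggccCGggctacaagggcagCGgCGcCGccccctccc
Tet2, chr3:133544391-133544640, minus strand: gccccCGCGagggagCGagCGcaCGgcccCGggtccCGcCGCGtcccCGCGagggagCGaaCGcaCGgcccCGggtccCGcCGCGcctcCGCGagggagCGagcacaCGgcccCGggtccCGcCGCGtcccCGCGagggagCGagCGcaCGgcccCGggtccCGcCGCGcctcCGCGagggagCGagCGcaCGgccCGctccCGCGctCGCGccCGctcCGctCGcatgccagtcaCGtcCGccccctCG
Tet3, chr6:83441679-83441928, minus strand: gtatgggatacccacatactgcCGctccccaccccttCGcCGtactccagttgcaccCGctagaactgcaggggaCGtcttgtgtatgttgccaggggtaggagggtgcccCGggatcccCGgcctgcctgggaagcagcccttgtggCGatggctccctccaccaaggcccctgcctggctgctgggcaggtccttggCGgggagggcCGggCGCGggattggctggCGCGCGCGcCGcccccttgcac

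The Tet2 window held 51 CG sites, a number that 0.067% of 32851 mouse start windows of the same length reached. Much of this window is a short CG-rich stretch repeated with few changes, as the printed sequence shows. The first Dnmt3a window held 38, reached by 1.88% of windows, the Dnmt3b window 21 (16.3%) and the Tet3 window 17 (23.5%). The median window held 6, and 92.1% of windows held at least 1. Dnmt1 has 3 annotated starts that differ in this respect, with 2 sites before the first, 7 before the start 6.909 kb downstream and 26 before the start 7.265 kb downstream, where 166 of the 250 bases are exon of Dnmt1 itself. An internal Dnmt3a start, 84.8 kb downstream of the first, had 15 sites, as did Tet1, and Mbd3 had 14. These windows also hold exon of their own gene, 16, 100 and 19 of the 250 bases in that order. The counts are per gene, so the share of each start in the RNA cannot be read from them.

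Levels are given as RPKM, counts scaled to gene length and to the library total, and ± gives the SD over the 5 libraries (n = 5). All 9 genes had counts in every library. Mbd3 was the most abundant at 45.4 ± 2.55 RPKM, above 94.4% of 17743 protein-coding genes with at least 1 count. It was followed by Mbd2 (13.1 ± 0.283), Dnmt1 (12.5 ± 0.678), Mbd1 (10.1 ± 0.252), Dnmt3a (8.30 ± 0.306), Tet3 (5.31 ± 0.393), Tet2 (4.68 ± 0.369), Tet1 (1.27 ± 0.110) and Dnmt3b (0.185 ± 0.0458). The median of those protein-coding genes was 3.70 RPKM, so only Tet1 and Dnmt3b lay below it. Neighbours in this order kept their order in all 5 libraries with ranges that did not overlap, except Mbd2 above Dnmt1 and Tet3 above Tet2, which held in 4 of 5 libraries each with overlapping ranges.

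**Figure D1:**
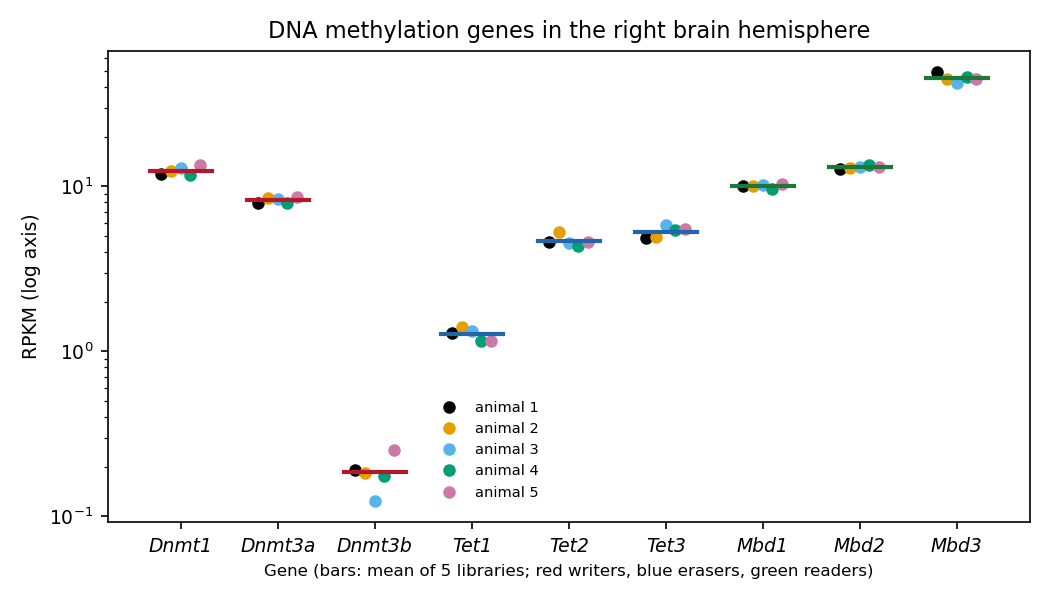
RPKM (log axis) of the 9 DNA methylation genes in each of the 5 libraries (points, coloured by animal) with the mean of 5 (bars, coloured by class). The levels span from 0.185 RPKM for Dnmt3b to 45.4 for Mbd3, and the points of a gene lie close together except for Dnmt3b.

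These levels rest on the length assigned to each gene. The length behind the deposited RPKM was 2689 bases for Mbd1, which is 40.1% of its annotated exons in the GENCODE annotation, and with all exons its level was 4.03 ± 0.101 RPKM, below Tet2. For Tet3 the annotated exons add up to 16695 bases, whereas the transcript with the longest coding sequence has 5944. With the lengths of such transcripts Tet3 stood at 14.9 ± 1.10 RPKM, Dnmt1 at 14.6 ± 0.796 and Dnmt3a at 14.3 ± 0.526, so the order of these 3 genes is not fixed by the data. Mbd3, Mbd2, Tet1 and Dnmt3b kept their places in the order under every length tried.

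Among the writers, Dnmt1 (ENSMUSG00000004099, GRCm38 chromosome 9, 20907209 to 20959888, 39 exon blocks) had 11.9, 12.4, 12.9, 11.8 and 13.4 RPKM in animals 1 to 5, from 1006 to 1160 counts. Animal 5 was highest and animal 4 lowest, 1.14-fold apart. The de novo enzyme Dnmt3a (ENSMUSG00000020661, chromosome 12, 3806007 to 3914443, 32 exon blocks) had 7.98, 8.47, 8.39, 7.98 and 8.67 RPKM, again with animal 5 highest and animal 4 lowest. With 1778 to 2098 counts it was the most deeply counted of the 9 genes, and the antisense gene Dnmt3aos, which overlaps 0.799% of its exons, stood at 0.0905 RPKM.

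Dnmt3b (ENSMUSG00000027478, chromosome 2, 153649450 to 153687730) had 13, 14, 9, 14 and 17 counts in animals 1 to 5, equal to 0.190, 0.184, 0.124, 0.176 and 0.253 RPKM. The exact 95% Poisson intervals of these values all overlapped, from 0.0568 to 0.236 RPKM in animal 3 and from 0.147 to 0.404 in animal 5. Its coefficient of variation over the libraries was 24.7%, against 27.3% from counting alone, so no difference between animals was detectable at this depth. These intervals cover counting error only, since PCR copies were not told apart by molecular identifiers. Of the sequence words of Dnmt3b, 10.7% also occur in its duplicate Dnmt3c, a germline enzyme of rodents, while the other 8 genes shared at most 0.328% of theirs with other genes.

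Within a library, Dnmt3a lay below Dnmt1 in all 5 animals, with log2 ratios between -0.62 and -0.54 (mean -0.58 ± 0.036, or 1.49-fold). Dnmt3b lay below Dnmt1 by 44.4-fold (log2 ratio -5.47 ± 0.23). An exact two-sided sign-flip test gave p = 0.0625 for both, the smallest value that 5 libraries allow, and 0.0688 after adjustment over the 11 ratios tested, so no ratio can pass 0.05. The order of Dnmt3a and Dnmt1 depends on length. With the longest coding transcripts the log2 ratio was -0.036, and on counts scaled to the library total with no length it was 0.81. The distance of Dnmt3b from Dnmt1 depends on the 0.1 RPKM added to each value, with a log2 ratio of -3.50 when 1 was added and -6.03 when 0.01 was added. Of the summed writer RPKM, Dnmt1 made up 59.5% ± 0.596, Dnmt3a 39.6% ± 0.599 and Dnmt3b 0.884% ± 0.198.

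**Figure D2:**
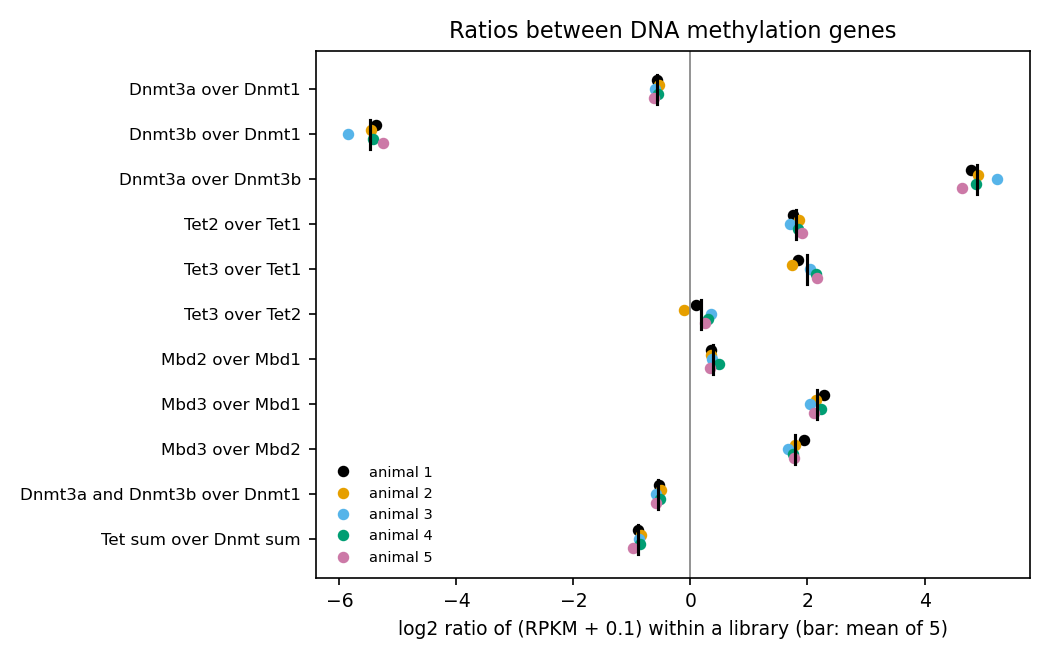
Log2 ratio of (RPKM + 0.1) between DNA methylation genes within each of the 5 libraries (points, coloured by animal; bars, mean of 5; the grey line marks equal levels). Each ratio lies on 1 side of 0 in all 5 libraries except Tet3 over Tet2, where animal 2 lies on the other side.

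Among the erasers, Tet3 (ENSMUSG00000034832, chromosome 6, 83362373 to 83459084) had 4.90, 4.91, 5.80, 5.42 and 5.50 RPKM in animals 1 to 5. Animals 1 and 2 were the low ones and animal 3 the highest. Tet2 (ENSMUSG00000040943, chromosome 3, 133463679 to 133545139) had 4.60, 5.32, 4.51, 4.37 and 4.60 RPKM, so animal 2 stood above the other animals. Tet1 (ENSMUSG00000047146, chromosome 10, 62804570 to 62908996) had 1.30, 1.402, 1.33, 1.15 and 1.15 RPKM from 224 to 307 counts, with animals 4 and 5 low. The antisense gene Gm42567 overlaps 0.255% of the Tet2 exons and stood at 0.0400 RPKM.

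With the recovered gene lengths Tet3 and Tet2 were close, and their order turned in 1 animal. The log2 ratio of Tet3 to Tet2 was 0.088, -0.11, 0.35, 0.30 and 0.25 in animals 1 to 5 (mean 0.18 ± 0.19, exact sign-flip p = 0.1875, adjusted 0.1875). Tet3 exceeded Tet1 by 3.96-fold (log2 1.98 ± 0.19) and Tet2 exceeded Tet1 by 3.50-fold (log2 1.81 ± 0.085), in 5 of 5 animals each (exact p = 0.0625). With the longest coding transcripts these log2 ratios were 3.43 and 2.66, and that of Tet3 to Tet2 was 0.76 ± 0.19, positive in 5 of 5 animals (exact p = 0.0625), so neither the closeness of Tet3 and Tet2 nor the turned order held with that length. Tet3 held 47.2% ± 3.29 of the summed Tet RPKM, Tet2 41.6% ± 2.71 and Tet1 11.3% ± 0.838. In animal 2 the shares were 42.2% for Tet3 and 45.7% for Tet2, and in animal 3 they were 49.8% and 38.8%. The summed erasers came to 11.3 ± 0.383 RPKM and the summed writers to 20.9 ± 0.984, a log2 ratio of -0.89 ± 0.054 that was negative in 5 of 5 animals (exact p = 0.0625) and stood at -0.22 with the longest coding transcripts.

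Among the readers, Mbd3 (ENSMUSG00000035478, chromosome 10, 80392539 to 80399550) had 49.2, 44.8, 42.2, 45.9 and 44.8 RPKM in animals 1 to 5. Animal 1 was highest and animal 3 lowest, 1.17-fold apart. Mbd2 (ENSMUSG00000024513, chromosome 18, 70568189 to 70626131) had 12.8, 12.9, 13.2, 13.5 and 13.1 RPKM, and Mbd1 (ENSMUSG00000024561, chromosome 18, 74267605 to 74282732), which can also bind unmethylated CG through a CXXC zinc finger, had 10.1, 10.1, 10.2, 9.65 and 10.3 RPKM. Both were nearly level across the animals, with the highest value 1.06-fold and 1.07-fold above the lowest. Mbd3 exceeded its alternative NuRD subunit Mbd2 by 3.44-fold (log2 ratio 1.78 ± 0.096) and Mbd1 by 4.47-fold (log2 2.16 ± 0.098), in 5 of 5 animals each (exact p = 0.0625). Mbd2 exceeded Mbd1 by 1.30-fold (log2 0.38 ± 0.060), also in 5 of 5. With all annotated exons the log2 ratios to Mbd1 were 3.46 for Mbd3 and 1.67 for Mbd2. Mbd3 made up 66.2% ± 1.43 of the summed reader RPKM.

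Differences between animals were tested for each gene against genes of like abundance. Dnmt3b did not pass the filter on low counts and was not tested. At an adjusted p of 0.05 (edgeR quasi-likelihood fit over 14770 genes), 0 of the 8 tested DNA methylation genes exceeded the trend, beside 0.305% of all genes. None reached an unadjusted p of 0.05 either, beside 5.43% of all genes, and DESeq2 called none of the 8 a dispersion outlier. The ratio to the trend was largest for Tet3 at 2.63 (edgeR adjusted p = 0.956) and next for Tet2 at 2.12 (edgeR adjusted p = 0.992). It was 1.46 for Mbd3, 1.22 for Dnmt1, 1.21 for Tet1 and 0.608 for Dnmt3a. Without animal 2, where Tet2 was high, its log2 ratio to the trend was -1.87, against 1.08 with all libraries. The median log2 ratio of the 8 was 0.28, beside -0.19 over all genes tested.

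Mbd1 and Mbd2 had the smallest ratios, 0.158 and 0.171. Their coefficients of variation were 2.51% and 2.16%, below the 5.10% and 4.08% that counting alone gives at their mean counts. Neither was called steadier than the trend by edgeR (adjusted p = 0.987 each), and 0% of all genes were. Without adjustment Mbd1 passed 0.05 and Mbd2 narrowly did not, so 1 of 8 passed, beside 5% of all genes. Mbd1 did not pass when animal 1, 2, 3 or 5 was left out, nor in either limma fit. The coefficient of variation was 3.69% for Dnmt3a, 5.44% for Dnmt1, 5.62% for Mbd3, 7.40% for Tet3, 7.87% for Tet2 and 8.69% for Tet1, each above its counting share of 2.26% to 6.14%.

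**Figure D3:**
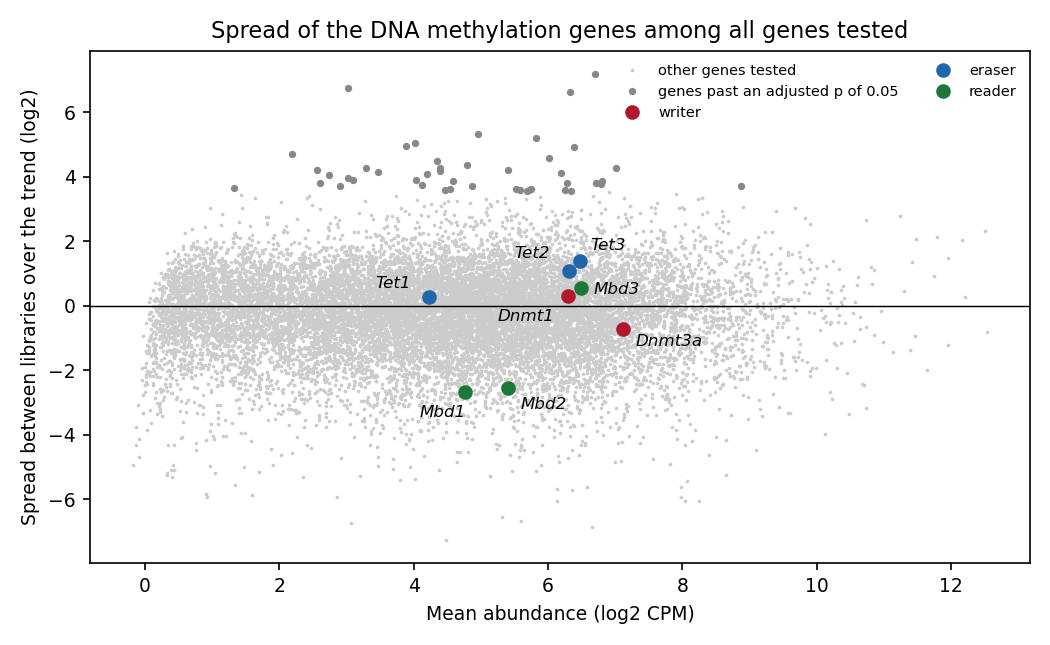
Quasi-dispersion of each gene between the 5 libraries over the abundance trend (log2, vertical axis) against mean abundance (log2 CPM, horizontal axis) for 14770 genes, with the 8 tested DNA methylation genes coloured by class and the 45 genes called in dark grey. Tet3 at 1.396 and Tet2 at 1.08 are the highest of the 8, and Mbd1 at -2.67 and Mbd2 at -2.55 are the lowest.

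The lowest RPKM came from animal 4 in 5 of the 9 genes (Dnmt1, Dnmt3a, Tet1, Tet2 and Mbd1), and the highest from animal 5 in 4 (Dnmt1, Dnmt3a, Dnmt3b and Mbd1). The share of all genes lowest in animal 4 or highest in animal 5 was not counted, so this cannot be called particular to these genes. The distances were small, with deviations of log2 CPM from the gene mean in animal 4 of -0.13 for Tet1, -0.094 for Tet2, -0.081 for Dnmt1, -0.058 for Mbd1 and -0.054 for Dnmt3a. Animal 4 also had the highest levels of the oligodendrocyte markers Mbp, 336 RPKM against 257 to 291 in the other animals, Mobp, 130.5 against 110 to 117, and Mog, 44.1 against 37.1 to 38.7. The sums of the listed astrocyte markers (671 RPKM against 608 to 660 in the other animals) and microglia markers (116 against 106 to 110) were also highest in animal 4. Of these markers, Slc1a2, C1qb and Cx3cr1 were not highest there, nor were the sums for neurons and oligodendrocyte precursors. The part of these cell types in the levels above was not tested. In a bulk sample fewer cells of a type and less RNA per cell cannot be told apart. Tet1 and Tet2 were highest in animal 2, with deviations of 0.13 and 0.17. There the 6 listed long nuclear RNAs (Malat1, Neat1, Meg3, Miat, Snhg11 and Kcnq1ot1) also had their highest sum. It was 348 RPKM against 277 to 328 in the other animals. Animal 5 had the next highest sum, 328, and the highest Malat1, with Tet1 at 1.15 RPKM and Tet2 at 4.60. The part of these RNAs or of library quality was not tested, nor whether the sum of these RNAs follows library quality or the mix of cells.

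**Figure D4:**
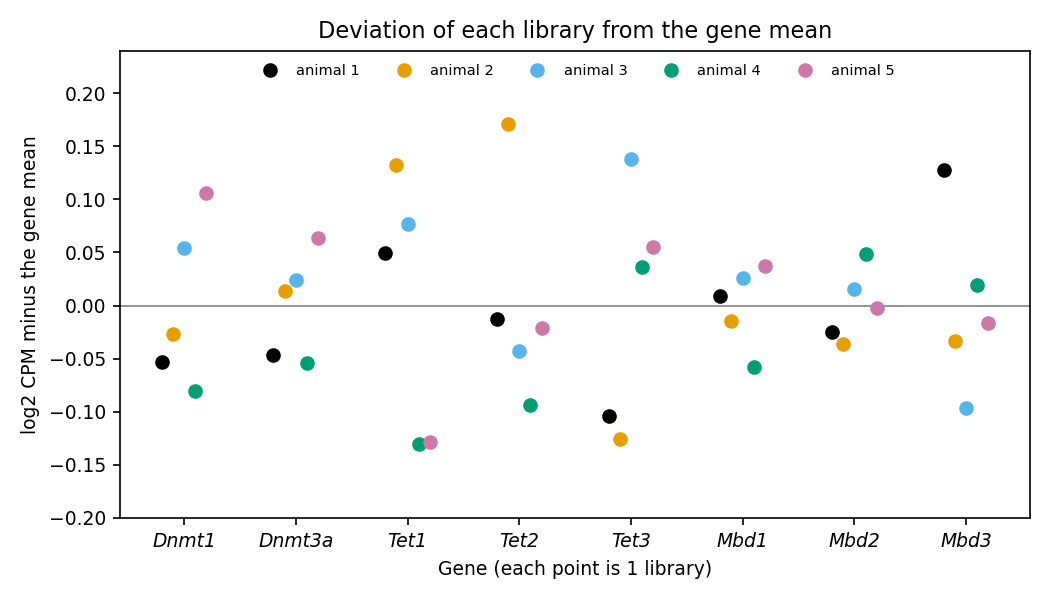
Log2 CPM of each library minus the gene mean (vertical axis) for the 8 tested DNA methylation genes, 1 point per library. Animal 2 stands at 0.17 for Tet2, animal 1 at 0.13 for Mbd3, and all points of Mbd1 and Mbd2 lie between -0.058 and 0.048.

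The genes whose deviations across the 5 libraries were most like those of Tet3, the member with the largest ratio to the trend, were Prkag1, a subunit of the AMP-activated kinase, Tmem260 and Ccnyl1. Their root mean square difference from Tet3 was 0.0184, 0.0198 and 0.0204 log2 CPM units, against a root mean square deviation of 0.0998 for Tet3 itself. This is a ranking of 14770 genes over 5 libraries.

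Related genes, in 7 lists with 79 different genes, were set beside the members, and 72 of them were tested. None was called more variable or steadier by edgeR, and 1 (Gadd45g) had an unadjusted p under 0.05 (edgeR adjusted p = 0.852), beside the 5.43% of all genes given above. The median log2 ratio of the 72 to the trend was -0.47.

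The 2 Uhrf genes differed in level. Uhrf1, which recruits Dnmt1 to newly replicated DNA, stood at 0.239 ± 0.0760 RPKM, and its relative Uhrf2 at 6.72 ± 0.142, beside 12.5 for Dnmt1. Uhrf1 shares 18.8% of its sequence words with other genes, so its level is less certain. The median of the 12 proliferation genes was 0.326 RPKM, led by the replication clamp Pcna (6.39 ± 0.405, 24.5% of its sequence shared), Mcm5 (2.39 ± 0.175) and Mcm6 (2.38 ± 0.236). The mitotic cyclin Ccnb1 was lowest at 0.0136 ± 0.0148, from a mean of 0.8 counts, and 35.3% of its sequence is shared, so its level is uncertain too. Dnmt3l, the germline partner of the de novo enzymes, had a mean of 2 counts (0.0475 ± 0.0381 RPKM). In the same list of other writers and cofactors, Ahcyl1, named for its likeness to Ahcy, stood at 78.6 ± 1.61 and Mat2b at 23.7 ± 1.10. Ahcy itself had 0.566 ± 0.102 RPKM, with 68.8% of its sequence words shared, and Mat2a 2.66 ± 0.291 (15.1% shared). The level of Ahcyl1 therefore does not stand for that of Ahcy.

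On the erasing side, Idh3a, a subunit of a mitochondrial enzyme that makes 2-oxoglutarate, stood at 90.9 ± 1.44 RPKM. The Tet enzymes use 2-oxoglutarate, but which enzyme supplies it to them was not tested. Ogt, a sugar transferase that binds Tet2 and Tet3, stood at 52.0 ± 2.85. Cxxc5 was at 30.1 ± 1.397. Dppa3, which protects the mark in the oocyte and early embryo, had 0 counts in all libraries. Of the repair genes, Parp1 led with 18.1 ± 0.791, followed by the stress-induced genes Gadd45g (12.6 ± 1.97) and Gadd45b (8.54 ± 0.474).

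The list of genes related to methyl-CG readers includes some that need not bind methylated CG themselves. In it, Zbtb4 (23.4 ± 0.799 RPKM) and Baz2a (10.2 ± 0.306) were in the range of Mbd1 to Mbd3, and Setdb2 was lowest (1.23 ± 0.157). Proteins that bind unmethylated CG through a CXXC finger were led by Fbxl19 (17.8 ± 0.988), Cxxc1 (16.7 ± 1.38) and the histone methyltransferase gene Kmt2a (15.8 ± 0.895), with Kdm2b lowest (1.43 ± 0.153). The NuRD remodeller genes Chd3 (101 ± 2.94), Chd5 (43.7 ± 1.25) and Chd4 (39.4 ± 1.73) headed the list of Mbd partners, whose median was 15.7 RPKM, beside 45.4 for Mbd3. Hdac1, a NuRD deacetylase, was lowest at 1.85 ± 0.277, but 41.4% of its sequence words occur in other genes, so its level is uncertain.

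**Figure D5:**
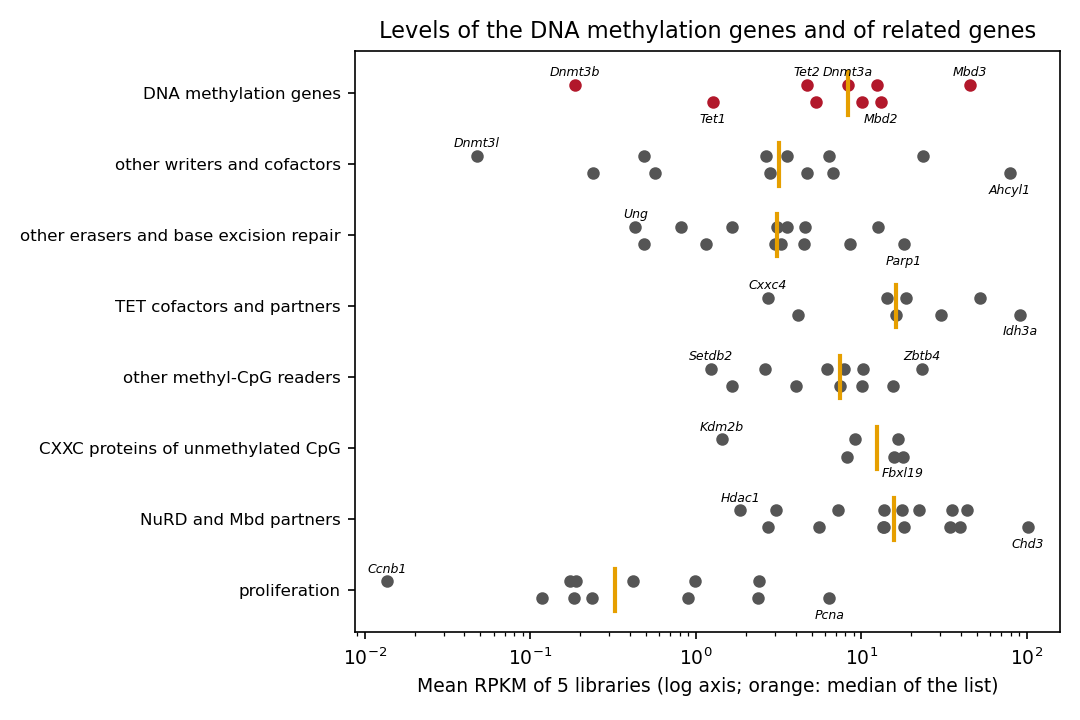
Mean RPKM of 5 libraries (log axis) of the 9 DNA methylation genes (red) and of the genes of 7 related lists (grey, with the lowest gene drawn and the highest of each list named; orange bars, list medians with genes at 0 included). Genes at 0, such as Dppa3, are not drawn. The members span 0.185 to 45.4 RPKM, with a median of 8.30, and the proliferation list has a median of 0.326.

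The libraries held 13184234 to 15570064 counts. All pairs of libraries differed by more than counting noise (chi-square per degree of freedom 2.45 to 4.28 over 14811 genes). Markers of neurons (Snap25, 369 ± 15.5 RPKM), astrocytes (Slc1a2, 302 ± 6.82), oligodendrocytes (Mobp, 117 ± 8.10), microglia (Ctss, 45.7 ± 2.13) and endothelium (Itm2a, 27.0 ± 1.28) were all present. Of the other endothelial markers, Slc2a1 varied more than the trend (27.0 to 38.4 RPKM, edgeR adjusted p = 0.0237), and Cldn5 had 18.5 to 28.3 RPKM and passed only without adjustment (edgeR adjusted p = 0.256). The liver genes Alb and Apoa2 summed to 13.7 RPKM in animal 1 and 1.19 to 2.77 in the others, and the blood genes Hbb-bs and Alas2 to between 43.7 RPKM in animal 5 and 166 in animal 3.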

How the data were processed

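RNA was measured in 5 libraries of 1 group. The submitters' processing notes name CASAVA 1.7, STAR 2.4.1d, featureCounts 1.4.6-p4 and build GRCm38. Annotation release, strand setting and multi-mapping treatment were not given in the sources used here. Raw counts per Ensembl gene were deposited by the authors, with RPKM made from them. The deposited RPKM matched the counts only if the 5 totals were recycled along each column (99.999% of 117232 nonzero entries within 0.0011 RPKM plus a relative 0.0002, against 21.2% with a library's own total), so 80% of entries had been divided by a total of another library. RPKM were therefore recomputed from a library's counts, its total and the recovered gene length. Symbols, positions and exons come from GENCODE M21 and promoters from RefSeq, both GRCm38, and 7 of the 9 members have a promoter window used here.

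For variability, edgeR 4.0.16 (R 4.3.3; filterByExpr, TMM) was run on the counts (robust quasi-likelihood fit with an intercept only). Each gene's quasi-dispersion over the abundance trend was set against an F distribution (4 and 15.3 degrees of freedom) in each tail, with Benjamini-Hochberg adjustment over 14770 genes. Ratios are of RPKM plus 0.1, tested by exact sign flips over 32 patterns. Sequence words have 50 bases, taken every 5 bases. Alternatives were other scaling, filters, priors, DESeq2 1.42.0, limma 3.58.1 on log2 RPKM plus 0.1, other lengths, other added values and each library left out.

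The members and lists were chosen with earlier results of these data known. Named are all members, the 3 most abundant and the lowest gene of each list, called genes and the 3 genes most like the member with the largest ratio. Some listed genes and markers are not reported here. Uhrf1, Ahcy, Mat2a and Gadd45g's call without adjustment were chosen after their values were seen. So were the 1 marker given per cell type, the cell type markers and sums given for animal 4, and the long nuclear RNAs.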

Additional observations from a re-analysis of the deposited data

Results flagged for a closer look

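Of 20 sets of 5 values checked (9 gene levels and 11 ratios), 2 had 1 library far from the others, and chance gives about 1 in 20. Tet2 stood at 5.32 RPKM in animal 2, with a gap to the next animal of 0.757 of the whole range (critical value 0.71). The log2 ratio of Mbd2 to Mbd1 was 0.48 in animal 4, with a gap of 0.799 of the range, where Mbd2 had its highest and Mbd1 its lowest value.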

How the results depend on the processing

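No DNA methylation gene was called more variable than the trend under any of the edgeR, limma or DESeq2 alternatives, or with any 1 library left out, and the lowest adjusted p of a member for higher variability was 0.871 (Tet3 without animal 5). Over all genes the number called was 45, against 249 with no low-count filter, 101 as DESeq2 outliers, 19 without the robust prior, 0 in limma's fit of recomputed RPKM, 79 in its fit of deposited RPKM, and 18 to 44 with 1 library left out. Tet3 passed the unadjusted threshold without animal 4, without animal 5 and with no low-count filter, and, as steadier, Mbd2 with DESeq2 size factors and without animal 4, and Dnmt3b in limma's fit of deposited RPKM. Mbd1 lost its unadjusted pass as steadier without animal 1, 2, 3 or 5 and in both limma fits. For the 10 ratios with 1 sign in every library, leaving out a library or changing the added value could not turn the sign. Of 121 ratio values under alternatives, 119 kept their sign, a count that includes these fixed outcomes. The exceptions were on counts scaled to the library total without length, where the log2 ratio to Dnmt1 was 0.81 for Dnmt3a and 0.82 for Dnmt3a and Dnmt3b summed, as the length term alone differs. Without length the ratio of Mbd3 to Mbd2 was 1.10. With all annotated exons 5 of the 9 genes kept their place in the order of levels, since the longer length of Mbd1 lowers its level. The lengths of the longest coding transcripts were added after seeing the data. Genes were paired within a library for the ratios, but no pairing of samples across groups was possible because all libraries belong to 1 group. Depth limits Dnmt3b most, with 67 counts in all.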
